A study of Mus musculus with 7 samples.

Results

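The lipoxygenase and leukotriene pathway was followed as 10 genes in mouse brain: Alox5, Alox5ap, Lta4h, Ltc4s, Ltb4r1, Cysltr1, Alox12, Alox15, Alox12b and Aloxe3. The genes were found by the name that the array design gives to their probes, 13 probes of the 39401 measured, and each gene was read from its brightest probe. Of the 10 genes, 9 rose clearly above background on a minimum of 3 arrays out of 7 and were tested, out of 23311 genes or other features tested from 31114 measured. Alox15 was the exception, because its only probe did not rise clearly above background on any array.

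RNA from brain tissue of male C57BL/6N mice was hybridised to 7 Agilent arrays in 1 colour (Cy3), 1 sample to an array. The groups were Pla2g2e -/- mice 3 days after a 60 min occlusion of the middle cerebral artery (3 arrays, called knockout), wild type mice 3 days after the same occlusion (3 arrays) and sham-operated wild type mice (1 array, with no day given). Pla2g2e encodes a secreted phospholipase A2, an enzyme that frees fatty acids from membrane lipids; the labels name no Cre line or promoter that would limit the deletion to a cell type, and no knockout sham array was analysed here. Age and the brain region taken were not given, and the labels do not tie replicates to individual animals; each p-value thus reflects the spread among these samples, which may be technical.

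Leukotrienes are signalling lipids made from arachidonic acid. 5-lipoxygenase, held at the nuclear membrane by its activating protein, turns arachidonic acid into an unstable intermediate, and from there the path forks: leukotriene A4 hydrolase makes leukotriene B4, which attracts neutrophils, whereas leukotriene C4 synthase joins glutathione to the intermediate and makes the cysteinyl leukotrienes, which make vessels leak. Most of this machinery sits in white blood cells, and in the ischaemic brain it is known chiefly from infiltrating leukocytes and microglia. The other lipoxygenases oxidise fatty acids at other carbons: those of platelets and of macrophages or eosinophils are encoded by Alox12 and Alox15, and those encoded by Alox12b and Aloxe3 act in the epidermis, where they build the water barrier of skin.

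The promoters of 4 genes are shown as examples of members that the arrays later separate: 3 genes that read low on 1 wild type array (Alox5, Ltc4s and Ltb4r1) and 1 that read the same on all arrays within a narrow band (Lta4h). Each line gives the 250 bases before the annotated start, from RefSeq on GRCm38.p6, 5′ to 3′ on the gene's own strand; capitals mark matches to the GC box GGGCGG, the letters that Sp1 binds, on either strand.
Alox5, chr6:116461179-116461428, minus strand: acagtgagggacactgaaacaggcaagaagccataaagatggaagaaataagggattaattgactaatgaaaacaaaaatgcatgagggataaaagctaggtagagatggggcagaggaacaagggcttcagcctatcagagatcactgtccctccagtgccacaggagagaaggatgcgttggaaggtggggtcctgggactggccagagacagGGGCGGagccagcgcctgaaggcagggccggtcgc
Ltc4s, chr11:50238533-50238782, minus strand: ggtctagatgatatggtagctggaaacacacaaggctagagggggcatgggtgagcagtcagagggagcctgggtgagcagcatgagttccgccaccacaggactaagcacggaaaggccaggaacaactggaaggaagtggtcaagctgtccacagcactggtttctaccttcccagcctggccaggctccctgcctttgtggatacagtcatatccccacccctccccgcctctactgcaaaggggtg
Ltb4r1, chr14:55765712-55765961, plus strand: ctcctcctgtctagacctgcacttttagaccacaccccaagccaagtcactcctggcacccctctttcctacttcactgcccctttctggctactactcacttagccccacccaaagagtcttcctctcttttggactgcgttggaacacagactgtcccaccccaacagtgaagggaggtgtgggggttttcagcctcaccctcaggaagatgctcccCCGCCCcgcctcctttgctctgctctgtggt
Lta4h, chr10:93453146-93453395, plus strand: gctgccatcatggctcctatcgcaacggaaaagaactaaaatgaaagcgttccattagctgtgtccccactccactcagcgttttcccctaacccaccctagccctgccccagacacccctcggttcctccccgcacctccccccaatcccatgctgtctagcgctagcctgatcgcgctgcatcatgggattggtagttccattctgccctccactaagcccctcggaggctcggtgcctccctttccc
RefSeq entries were used for 6 members, these 4 and Alox12 and Alox12b. The GC box occurred in 4 of the 6 windows, those of Alox5, Ltb4r1, Alox12 and Alox12b, and in 32.7% of 32851 promoter windows of the same length. In Alox5 it began 35 bases before the start and in Ltb4r1 31 bases before it. The TATA box TATAAA (12.4% of all windows) and the letters GAGGAAGT, of the type bound by the myeloid factor PU.1 (2.44% of all windows), were in none of the 6 windows on either strand, and no matches overlapped. These matches describe the letters only.

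Probes of 3 lipoxygenases other than 5-lipoxygenase are shown next, because their readings decide what can be said of these genes: 2 probes of Alox12b disagree, that of Alox15 stays near background and 1 of Alox12 is dim. All are 60-base probes given 5′ to 3′, and all lie in stretches that can be read without a stop codon in 2 of 3 frames, except the last, which is printed only as far as its stop codon (capitals, from base 40 in the frame of its first base).
Alox12, from transcript base 1090: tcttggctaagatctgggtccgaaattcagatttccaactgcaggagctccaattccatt
Alox15, from transcript base 1426: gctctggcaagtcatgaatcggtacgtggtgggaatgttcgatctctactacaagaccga
Alox12b, from transcript base 1429: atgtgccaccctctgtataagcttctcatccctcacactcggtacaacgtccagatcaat
Alox12b, from transcript base 2239: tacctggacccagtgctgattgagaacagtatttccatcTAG
By the array design, on mm9, the Alox12 probe lies at chr11:70063629-70063688 (minus strand) and the last Alox12b probe at chr11:68983186-68983245 (plus strand). The Alox15 probe and the first Alox12b probe carry no mm9 position in the design.

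The array labelled wild type day 3 replicate 1 stood apart from the other 6. Its correlation with them across all tested features was 0.86 to 0.92, against 0.97 to 0.99 among the others. It was the lowest of the 7 arrays for 34.3% of features and the highest for 43.9%. The sham array, in contrast, correlated with the 5 other day 3 arrays at 0.97 to 0.99. The 3 knockout arrays were on one slide and the other 4 on another, so that slide and genotype cannot be told apart. Whether the labels of wild type day 3 replicate 1 and of sham are right was not tested; if either were wrong, the wild type day 3 or sham values would describe other samples than their names say. Every comparison is given with all 7 arrays and without wild type day 3 replicate 1. Pla2g2e itself, on its brighter probe, read -4.44, -5.83 and -4.97 in the knockout, -6.89, -3.68 and -3.36 in wild type day 3 and -4.69 in sham, on the log2 scale used throughout (log2 of a probe's intensity relative to the 75th percentile of its array). This probe rose clearly above background on all 7 arrays, those of the knockout included. On it the knockout arrays were below wild type replicates 2 and 3 but above replicate 1. Sham lay within the knockout range. The dimmer probe read -7.94, -8.44 and -7.84 in the knockout. It read -6.72 and -6.50 in wild type replicates 2 and 3 and -6.83 in sham, all above the knockout arrays, whereas replicate 1 was again below them. It rose clearly above background on 3 arrays only, wild type replicates 2 and 3 and sham. Which exons the deletion removes was not given in the sources used here.

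Tissue identity was checked with marker genes. Neuron markers (7 tested, among them Syt1 and Tubb3) had a median level of 1.43, 2.47 and 0.99 in the knockout, 4.28, 2.01 and 1.75 in wild type day 3 and 2.40 in sham, so the brain label fitted all arrays, and replicate 1 of wild type day 3 was the highest for 7 of 7. Astrocyte markers (Gfap and S100b among 6) lay between 1.27 and 3.13 on all 7 arrays and oligodendrocyte markers (Cnp and Mag among 5) between 1.82 and 3.60.

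The genes of leukotriene synthesis were tested first. Alox5ap, the activating protein that hands arachidonic acid to 5-lipoxygenase, read 3.65, 3.13 and 3.26 on the knockout arrays, -1.03, 3.36 and 3.04 on the wild type day 3 arrays and 2.73 on the sham array (replicates 1 to 3 in each group, as in all lists that follow). One wild type array was 13.5-fold below the lowest of the other 6, which lay within 0.93 of each other, and the groups overlapped. The mean was 3.35 ± 0.27 in the knockout and 1.79 ± 2.45 in wild type day 3 (SD, n = 3 each), a difference of 1.56 with a 95% confidence interval of -1.43 to 4.54 (limma, adjusted p = 0.862). Without wild type replicate 1 the difference was 0.15, with an interval of -0.43 to 0.72.

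Alox5, which encodes 5-lipoxygenase itself, read 0.30, 0.01 and 0.22 in the knockout, -3.61, -0.05 and 0.22 in wild type day 3 and -0.48 in sham. Its low value was again that of wild type replicate 1, 8.70-fold below the next lowest array, and the other 2 wild type arrays lay within or next to the knockout range. The difference of 1.32 (interval -1.28 to 3.92, adjusted p = 0.862) came to 0.09 without that array (interval -0.34 to 0.52). A probe on chr6:116360326-116360385 of mm9 (minus strand) gave these values.

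Ltc4s, the synthase of the cysteinyl branch, read 1.50, 1.65 and 1.59 in the knockout, -0.31, 1.37 and 1.49 in wild type day 3 and 1.54 in sham. All 3 knockout arrays were above all 3 wild type day 3 arrays, by a margin of hundredths at its narrowest, and the sham array lay within the knockout range. Ltc4s was the 1 of 9 members whose groups did not overlap with the knockout higher, which was so for 1.88% of all features tested; 0 of 9 members had the knockout lower without overlap, against 2.65% of features. The difference was 0.73 with all arrays (interval -0.54 to 2.00, adjusted p = 0.862) and 0.15 without wild type replicate 1 (interval -0.19 to 0.49).

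Lta4h, the hydrolase of the leukotriene B4 branch, behaved unlike the other 3. It read 1.47, 1.32 and 1.50 in the knockout, 1.37, 1.36 and 1.30 in wild type day 3 and 1.16 in sham, so that wild type replicate 1 lay inside the range of the other arrays. The 7 values spanned 0.34. The difference between knockout and wild type was 0.09 (interval -0.32 to 0.50) with that array and 0.10 (interval -0.24 to 0.44) without it.

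**Figure D1:**
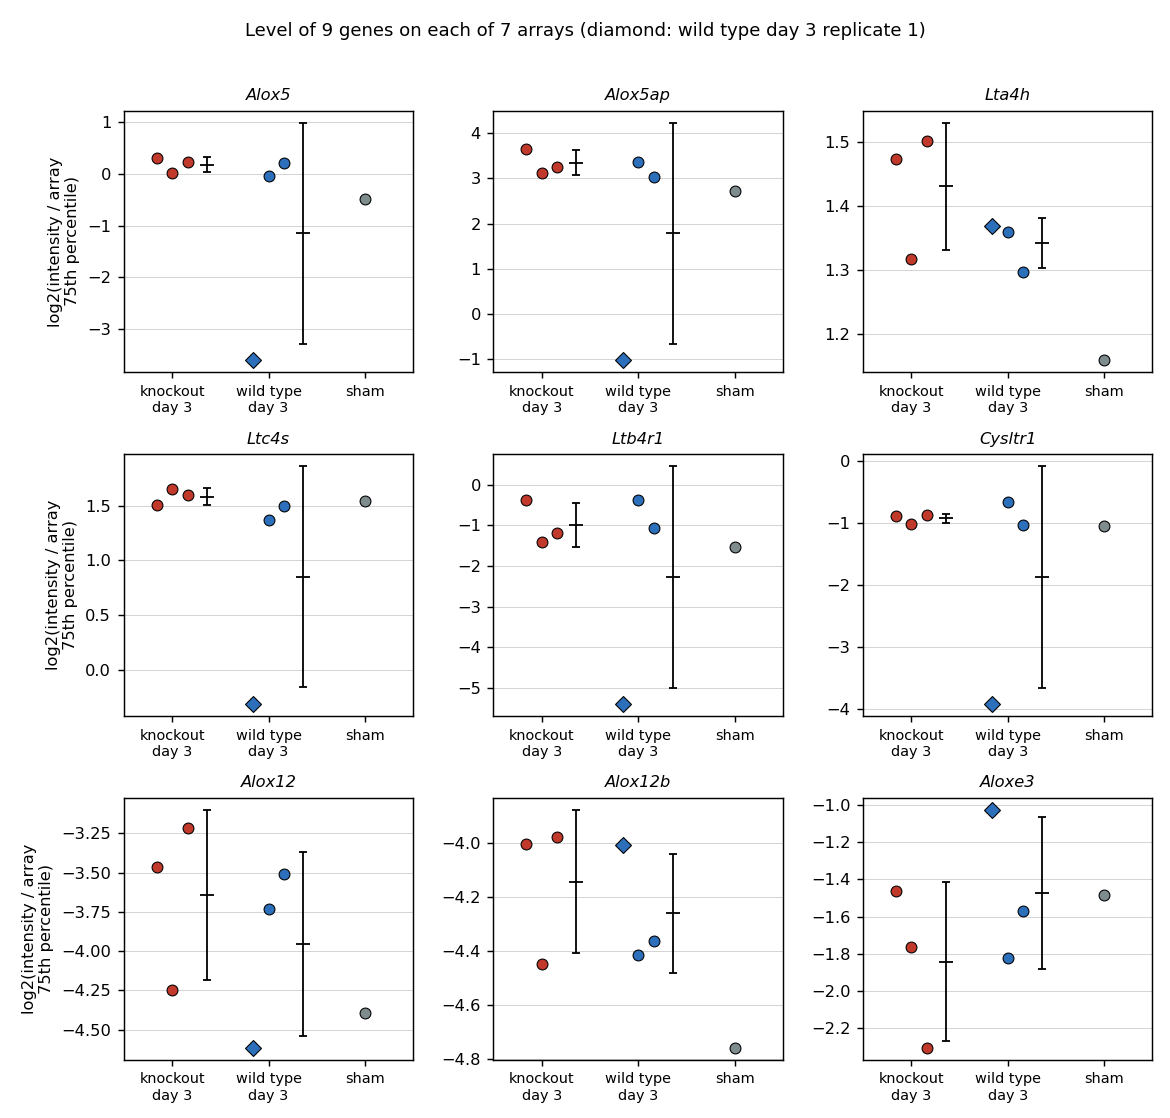
Level of each tested gene on each array, as log2 of intensity relative to the array's 75th percentile (vertical axes differ between panels), for knockout day 3, wild type day 3 and sham. Points are arrays, the diamond is wild type day 3 replicate 1, and bars beside the day 3 groups give the mean ± SD of 3 arrays; the diamond lies far below all other points for Alox5, Alox5ap, Ltc4s, Ltb4r1 and Cysltr1 and among them for Lta4h.

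Both receptors among the members followed Alox5 and Alox5ap rather than Lta4h in where they were low. The further leukotriene receptors Ltb4r2 and Cysltr2 did not. On wild type replicate 1 Ltb4r2 read -3.95, above the -5.10 to -4.24 of the other 6 arrays. Cysltr2 read -5.24 there, inside the -5.65 to -4.68 of the rest. Ltb4r1, the high-affinity receptor through which leukotriene B4 draws in neutrophils, read -0.39, -1.41 and -1.20 in the knockout, -5.39, -0.37 and -1.06 in wild type day 3 and -1.53 in sham. Its probe lies at chr14:56387175-56387234 of mm9 (plus strand). Wild type replicate 1 was 14.5-fold below the next lowest array, and the other 6 spanned 1.16. The sign of the difference between the genotypes turned on that array: it was 1.28 with all arrays (interval -2.08 to 4.63) and -0.28 without it (interval -1.31 to 0.75).

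Cysltr1, the receptor for cysteinyl leukotrienes on smooth muscle and on leukocytes, read -0.88, -1.01 and -0.88 in the knockout, -3.92, -0.66 and -1.03 in wild type day 3 and -1.04 in sham. The 6 arrays other than wild type replicate 1 lay within 0.38 of each other. Its second probe gave the same picture, with -2.97, -3.18 and -2.95 in the knockout, -5.84, -2.89 and -3.33 in wild type day 3 and -3.13 in sham. The difference was 0.95 with all arrays (interval -1.24 to 3.13) and -0.08 without replicate 1 (interval -0.51 to 0.35); on the second probe it was 0.99 and 0.08.

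The other lipoxygenases did not share the deep low. Alox12, the platelet-type enzyme, read -3.46, -4.25 and -3.21 in the knockout, -4.62, -3.73 and -3.51 in wild type day 3 and -4.39 in sham on its brighter probe. Wild type replicate 1 was the lowest array, but only 1.17-fold below sham, and the groups overlapped. The probe shown above, upstream in the same transcript, read -7.11, -7.18 and -6.50 in the knockout, -8.83, -7.42 and -6.92 in wild type day 3 and -7.67 in sham, and was clearly above background on 3 arrays only, 2 of the knockout and 1 of wild type. On the brighter probe the difference was 0.31 with all arrays (interval -0.72 to 1.35) and -0.02 without replicate 1 (interval -0.92 to 0.88).

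Of the epidermal pair, Aloxe3, which encodes the hydroperoxide isomerase that acts after Alox12b in skin, read -1.46, -1.76 and -2.31 in the knockout, -1.03, -1.82 and -1.57 in wild type day 3 and -1.48 in sham. Here wild type replicate 1 was the highest array, 1.35-fold above the next. That array was highest for 1 of 9 members, this one, and for 43.9% of features. The difference of -0.37 (interval -1.18 to 0.44) was -0.15 without it (interval -0.90 to 0.60), and the knockout and wild type arrays overlapped.

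Alox12b, which encodes the 12R-lipoxygenase of skin, gave 2 different readings on the array that stood apart. Its brighter probe read -4.00, -4.45 and -3.98 in the knockout, -4.01, -4.41 and -4.36 in wild type day 3 and -4.76 in sham, with wild type replicate 1 inside the range of the rest. The probe that ends past the stop codon read -5.27, -5.46 and -4.82 in the knockout, -3.38, -5.36 and -5.45 in wild type day 3 and -4.94 in sham, with wild type replicate 1 at 2.73-fold above the next highest. The knockout minus wild type difference was 0.12 on the brighter probe (interval -0.45 to 0.69) and -0.46 on the other (interval -1.97 to 1.05), and without that array 0.25 and 0.22.

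Alox15, the 12/15-lipoxygenase of macrophages and eosinophils, gave no usable level. Its single probe, printed above, was clearly above background on 0 of 3 knockout arrays, 0 of 3 wild type day 3 arrays and not in sham, so only a ceiling near background is known and no fold is given.

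**Figure D2:**
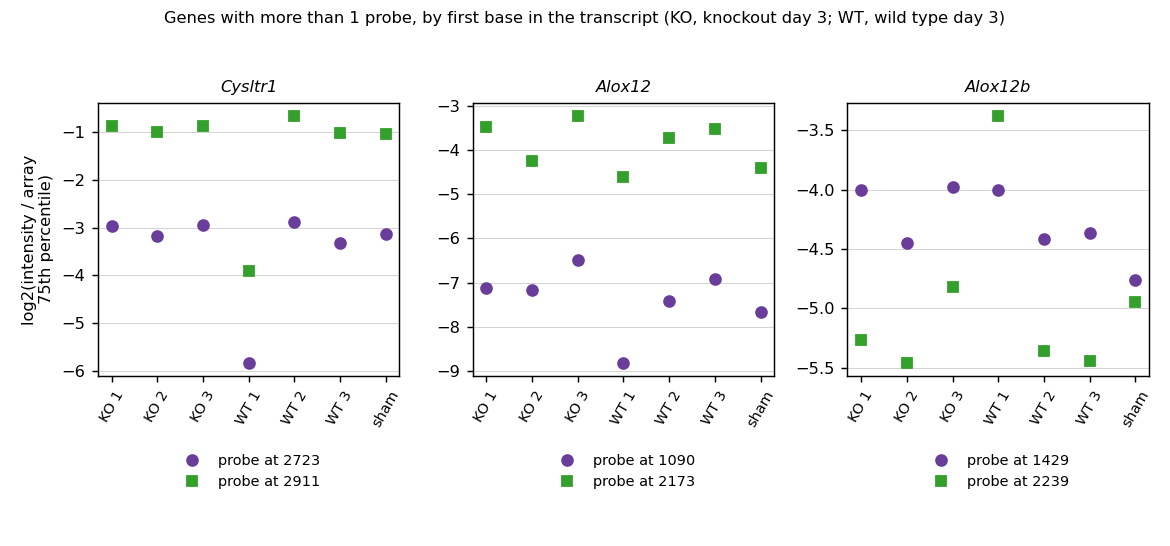
Level on each array, as log2 of intensity relative to the array's 75th percentile, of the 2 probes of Cysltr1, Alox12 and Alox12b, named by the transcript base at which they begin. On wild type day 3 replicate 1 (WT 1) both Cysltr1 probes are the lowest of their series, whereas the Alox12b probe at 2239 is the highest of its series at -3.38 and the one at 1429 is not set apart.

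Set against all features, the low values on wild type day 3 replicate 1 covered more of the members than of the arrays' features at large. That array was the lowest of 7 for 6 of 9 members (34.3% of features), lower than each of the others by at least 1 on the log2 scale for 5 of 9 (13.1% of features), and by at least 2 for 4 of 9 (6.21% of features). The 4 were Alox5, Alox5ap, Ltb4r1 and Cysltr1, and Ltc4s made the fifth. These shares are counts on 1 array and carry no test.

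Between the genotypes, limma called 0 of 9 members at an adjusted p under 0.05, as it called 0.0% of all 23311 features; at an unadjusted p under 0.05 there were 0 members and 197 features. Without wild type replicate 1 the calls were again 0 of 9 and 0.0%, with 0 members and 380 features at an unadjusted p under 0.05. With all arrays the difference was positive for 8 members and negative for Aloxe3, with a median of 0.73 against -0.03 over all features. Without replicate 1 it was positive for 5 and negative for 4, with a median of 0.09 against 0.00 over all features. The widest of the intervals without that array, that of Ltb4r1, still allowed a log2 difference of -1.31 or of 0.75, and the narrowest, that of Ltc4s, -0.19 to 0.49.

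**Figure D3:**
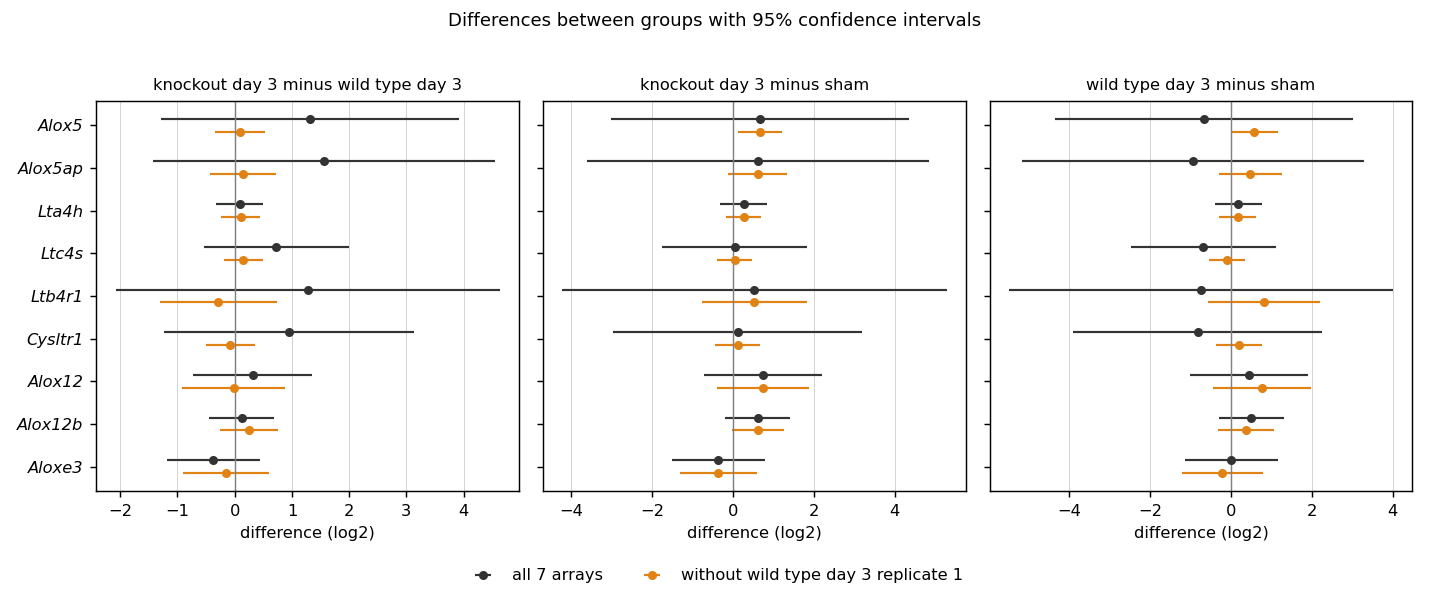
Difference of each tested gene between groups (log2, points) with its 95% confidence interval from limma, with all 7 arrays and without wild type day 3 replicate 1, for knockout day 3 minus wild type day 3, knockout day 3 minus sham and wild type day 3 minus sham. Leaving out that array brings the knockout minus wild type difference of Alox5ap to 0.15, against 1.56 with it, and leaves that of Lta4h near 0.1.

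The comparisons with sham rest on 1 sham array and share it with each other, so the values of both day 3 groups are set side by side. With all arrays, limma called 0 of 9 members in the knockout against sham (0.0129% of features called, 304 features and 0 members at an unadjusted p under 0.05) and 0 of 9 in wild type day 3 against sham (0.0129%, 261 features and 0 members). Without wild type replicate 1 the calls were 0 of 9 in both, against 0.0343% of features in the knockout and 0.0257% in wild type day 3. At an unadjusted p under 0.05, Alox5 was the only member in the knockout comparison, named here after its values were seen, beside 1145 of 23311 features; in that of wild type there were 0 members and 1053 features.

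Sham was at the low end for most of the pathway. For 7 of 9 members the sham value lay below all 5 day 3 arrays other than wild type replicate 1, which was so for 24.9% of features; for 0 of 9 it lay above all 5 (21.8% of features). The exceptions were Ltc4s and Aloxe3. For 2 of the 7 the second probe did not show this: sham lay inside the range of the 5 arrays on the second probe of Alox12b (-5.46 to -4.82 on the day 3 arrays and -4.94 in sham) and of Cysltr1 (-3.33 to -2.89 on the day 3 arrays and -3.13 in sham). The gap between sham and the nearest of the 5 arrays was 0.44 for Alox5, 0.31 for Alox5ap and Alox12b, 0.14 for Lta4h and Alox12, 0.12 for Ltb4r1 and 0.01 for Cysltr1.

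Alox5 had the widest such gap. Without wild type replicate 1 its difference from sham was 0.66 in the knockout (interval 0.12 to 1.21, unadjusted p = 0.0265, adjusted p = 0.712) and 0.57 in wild type day 3 (interval -0.01 to 1.15, adjusted p = 0.769). For Alox5ap the differences were 0.62 (interval -0.11 to 1.35) and 0.47 (interval -0.30 to 1.25). Ltb4r1 differed from sham by 0.53 in the knockout and 0.82 in wild type, with intervals that spanned more than 2.5 on the log2 scale. Ltc4s lay at 0.04 and -0.11 from sham, within 0.56 either way by its intervals. With wild type replicate 1 in its group, the wild type minus sham differences of Alox5, Alox5ap, Ltb4r1 and Cysltr1 were instead -0.66, -0.94, -0.74 and -0.83.

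Markers of the cells that carry this pathway were read on the same arrays. Since these are bulk samples, fewer cells of a type and less RNA per cell cannot be told apart. Monocyte and macrophage markers (8 tested, with Ms4a7, Cd14, Lyz2 and Mrc1 the most abundant) had a median of 2.49, 1.29 and 1.94 in the knockout, -5.30, 2.08 and 1.89 in wild type day 3 and 0.70 in sham. Their summed intensity, in units of the array's 75th percentile, was 21.7 to 45.8 in the knockout, 0.65 on wild type replicate 1, 26.8 to 34.5 on the other 2 wild type arrays and 20.9 in sham. All 8 were lowest on wild type replicate 1, and Arg1, Cd163 and F10 were clearly above background on 6 of the 7 arrays. Ly6c2 was not found under that name.

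Neutrophil markers (11 tested) had a median of -1.19, -2.83 and -1.96 in the knockout, -4.91, -1.66 and -1.76 in wild type day 3 and -3.63 in sham, and 6 of the 11 were lowest on wild type replicate 1. They had a summed intensity of 44.2 to 71.0 in the knockout, 43.0 on wild type replicate 1, 53.6 to 66.9 on the other 2 and 29.5 in sham. Csf3r, the receptor for granulocyte colony-stimulating factor, made up most of this sum on every array, sham included, and nearly all of it on wild type replicate 1. It read 5.40 on wild type replicate 1 and 4.62 to 5.32 elsewhere. S100a9, a calcium-binding protein abundant in neutrophils, read 4.17, 3.19 and 3.13 in the knockout, -2.19, 4.40 and 3.80 in wild type day 3 and 1.53 in sham. Ly6g was not found under that name.

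Most microglia markers were also low on wild type replicate 1. The median over the list was 0.52, 1.49 and 1.04 in the knockout, 0.14, 1.26 and 1.22 in wild type day 3 and 1.32 in sham. On wild type replicate 1, 7 of 9 were lowest and the other 2, P2ry12 and Siglech, were highest. The summed intensity was 62.0 to 74.3 in the knockout, 41.1 on wild type replicate 1, 62.3 to 70.3 on the other 2 wild type arrays and 73.3 in sham. Endothelial markers (6 tested) were all lowest on wild type replicate 1, with a median of 2.41 against 3.50 to 4.74 elsewhere.

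Markers of other cells that can carry these enzymes were read too. Mast cell markers included 3 of 8 that were clearly above background on no array (Cma1, Ms4a2 and Tpsab1), and the 5 others summed to 0.27 to 0.32 in the knockout, 0.19 on wild type replicate 1, 0.32 to 0.34 on the other 2 wild type arrays and 0.19 in sham. The eosinophil markers tested, 3 of 4, summed to at most 0.35 on any array. Platelet markers (6) summed to 11.4 to 35.8 in the knockout, 0.83 on wild type replicate 1, 17.0 to 21.6 on the other 2 and 6.77 in sham, but Pf4, a platelet chemokine, carried most of this sum: it read -1.32 on wild type replicate 1 and 2.69 to 5.14 elsewhere. Their median was -4.51 on wild type replicate 1 and -4.34 to -3.34 elsewhere, with 4 of 6 lowest there and 2, Gp1bb and Gp9, highest. Keratinocyte markers (5 tested) had a median of -3.32 on wild type replicate 1 and -5.44 to -3.89 elsewhere. On that array 4 of the 5 were highest, as were Aloxe3 and 43.9% of all features.

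Lymphocyte markers (4 tested) had medians of -3.88 on wild type replicate 1 and -3.86 to -3.44 elsewhere. On that array 0 of the 4 were lowest and 1, Cd4, was highest, at 0.89 against -1.63 to -1.04 elsewhere. Their summed intensity was 2.09 there and 0.61 to 0.97 elsewhere. Choroid plexus markers (5 tested) had medians of -3.26 on wild type replicate 1 and -5.19 to -2.52 elsewhere. In sham, the neutrophil, monocyte and macrophage, platelet and endothelial sums (for endothelial markers, 97.6 or more on the day 3 arrays and 76.0 in sham) were below all 5 day 3 arrays other than wild type replicate 1, as were 7 of 9 pathway genes. Within the monocyte and macrophage list the knockout minus sham difference was positive for 4 genes and negative for 4. The part of these cell markers in the pathway's values was not tested.

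**Figure D4:**
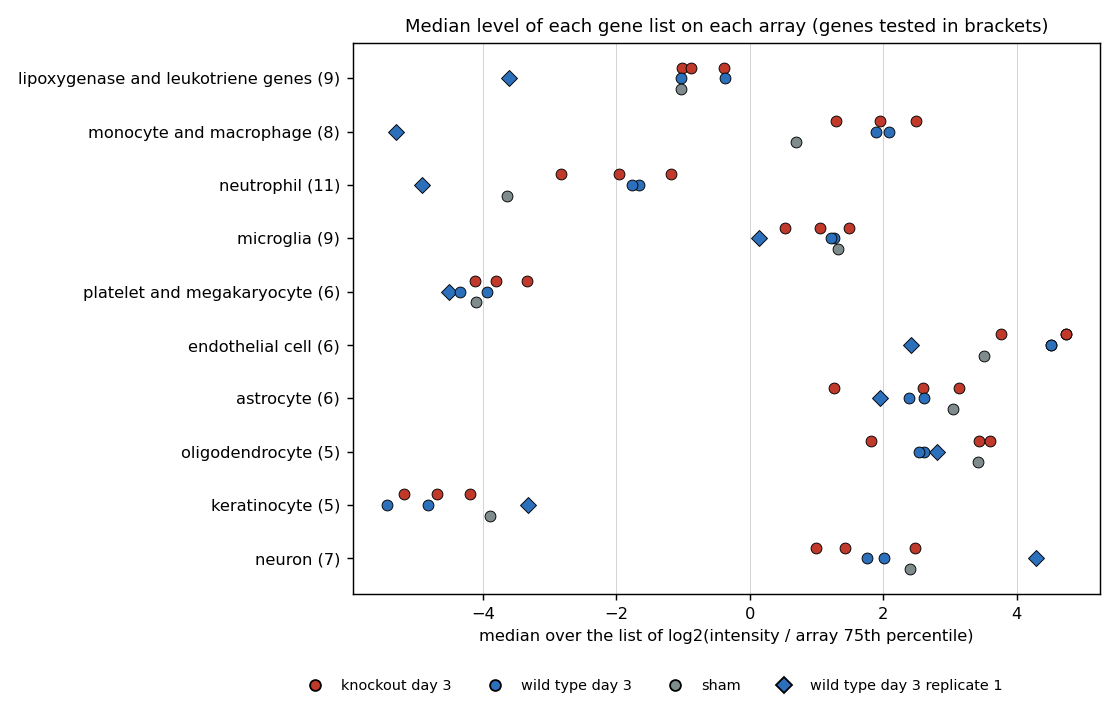
Median over each gene list of log2 intensity relative to the array's 75th percentile, for the 9 tested lipoxygenase and leukotriene genes and for cell type marker lists, with 1 point per array of knockout day 3, wild type day 3 and sham. The diamond, wild type day 3 replicate 1, is lowest for the pathway at -3.61 and for monocyte and macrophage markers at -5.30, and highest for neuron markers at 4.28.

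Further genes of leukotriene and lipoxygenase metabolism were read in the same way. Of 28 such genes, 24 were tested, and the others, Alox8, Oxgr1, Gpr18 and Sdr9c7, were clearly above background on at most 2 arrays. Limma called 0 of the 24 higher and 0 lower in the knockout against wild type day 3, where 0.0% of features were called and 0 of the 24 had an unadjusted p under 0.05, and also 0 in the other 2 comparisons. The knockout minus wild type difference was positive for 16 and negative for 8, with a median of 0.25; without wild type replicate 1 it was positive for 7 and negative for 17, with a median of -0.07 (0.00 over all features).

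The 8 with the largest differences again owed most or much of their size to that array. Pla2g4a, the cytosolic phospholipase A2 that supplies arachidonic acid to the pathway, read 1.72, 0.94 and 1.91 in the knockout, -1.94, 1.30 and 1.55 in wild type day 3 and 0.88 in sham. The knockout minus wild type difference was 1.22 ± 0.99 (SE) with all arrays and 0.10 ± 0.33 without replicate 1. Mgst2, a microsomal glutathione transferase that can also make leukotriene C4, read -3.97 on wild type replicate 1 and -1.97 to -0.81 on the other 6.

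Of the 8, 3 encode enzymes that act on leukotriene B4 or on the cysteinyl leukotrienes. Dpep2, a dipeptidase that trims cysteinyl leukotrienes, read -6.46 on wild type replicate 1 and -1.52 to -0.08 on the other 6. Cyp4f18, the cytochrome that hydroxylates leukotriene B4 in mouse neutrophils, read -3.23 there and 1.99 to 2.67 elsewhere. Ptgr1, which oxidises leukotriene B4, read -3.62 there and 0.24 to 0.67 elsewhere. Other genes of that kind did not all follow them: Cyp4f14, a further cytochrome of the same family, was highest on that array, at -0.31 against -2.46 to -0.53 on the other 6, and Ggt1, a glutamyl transferase that acts on cysteinyl leukotrienes, read -4.70 there, inside the -5.00 to -4.06 of the rest.

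Their differences between knockout and wild type were 1.61, 1.60 and 1.27 with all arrays, for Dpep2, Cyp4f18 and Ptgr1, and -0.43, -0.32 and -0.13 without replicate 1. Cmklr1, a receptor for chemerin and a resolvin on macrophages, read -4.67, -4.86 and -4.80 in the knockout, -8.74, -4.40 and -4.27 in wild type day 3 and -4.65 in sham. It was clearly above background on 6 of the 7 arrays. The exception was wild type replicate 1, where the lowest reading clearly above background was -7.86, so its -8.74 there is a background value. Alox12e, a further epidermal lipoxygenase of the mouse, and Gpr17, an orphan receptor of oligodendrocyte precursors that has been tied to cysteinyl leukotrienes, ran the other way, at -4.26 and 2.76 on wild type replicate 1 against -7.05 to -6.43 and -1.87 to 2.22 on the other 6. The knockout minus wild type difference of Alox12e was -1.15 with all arrays. Without replicate 1 it was still -0.39 ± 0.16 (SE, limma adjusted p = 0.9999). For Gpr17 these differences were -1.22 and -0.145.

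Without replicate 1, 2 of the 24 had an unadjusted p under 0.05, both lower in the knockout, beside 380 of 23311 features, and they are named here after their values were seen. Cmklr1 differed by -0.44 ± 0.13 (SE; unadjusted p = 0.0229, limma adjusted p = 0.9999). Cysltr2, the second receptor for cysteinyl leukotrienes, read -5.65, -5.01 and -5.39 in the knockout and -5.24, -4.68 and -4.75 in wild type day 3, a difference of -0.64 ± 0.22 without replicate 1 (unadjusted p = 0.0367, adjusted p = 0.9999) and -0.46 ± 0.27 with it.

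**Figure D5:**
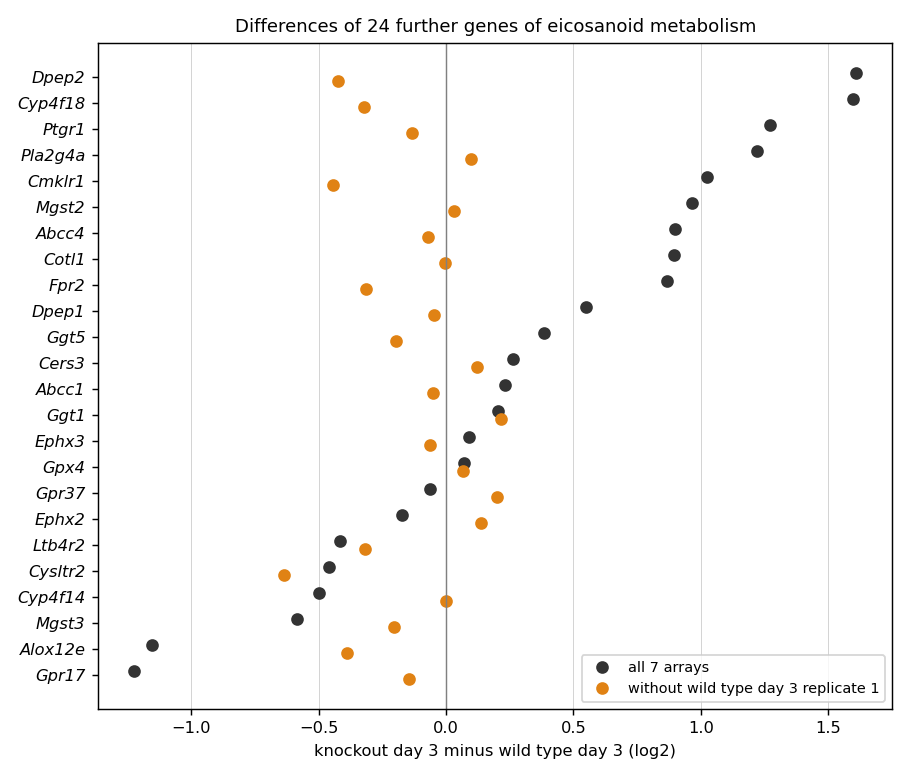
Knockout day 3 minus wild type day 3 difference (log2) of the 24 tested further genes of leukotriene and lipoxygenase metabolism, with all 7 arrays and without wild type day 3 replicate 1. The 6 largest positive differences, from 1.61 for Dpep2 to 0.96 for Mgst2, all lie at or below 0.10 once that array is left out.

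The features whose pattern over the 7 arrays was most like each member are given as a description. The arrays share their scaling and, for the members that were far lower on wild type replicate 1, that array sets most of the pattern. For Alox5ap they were Lyz1, Arg1 and Hcls1, with Pearson r of 1.00 each over 7 arrays and 0.98, 0.94 and 0.94 over the 6 without that array; 10.7% of all features had r above 0.95 with it. For Alox5 they were Pole3, Snrpd1 and Nxt1 (r without replicate 1 of 0.96, 0.93 and 0.97; 11.6% of features above 0.95). Ltc4s was nearest to Spidr, Laptm5 and Gsg1 (0.96, 0.90 and 0.77 without replicate 1; 6.09% of features).

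Among the receptors, Ltb4r1 was nearest to Klhl5, Gm6522 and Lilra6 (0.97, 0.98 and 0.98 without replicate 1), and Cysltr1 to Ptpn18, Snx20 and Atpsckmt (0.90, 0.89 and 0.88). Fewer features resembled the members without a deep low on that array. Alox12 was also lowest there, but only 1.17-fold below the next array. Lta4h was nearest to Manbal, Chmp1a and Ccdc12 (r of 0.97, 0.96 and 0.96 over 7 arrays; 0.0729% of features above 0.95), and Aloxe3 to Acsbg2, Barx2 and Hrh1 (0.99 each; 0.0729%). Alox12 was nearest to Sh2d3c, Rit1 and Eif1ad (1.00 each; 1.89%) and Alox12b to Gtf2h4, Elob and Phf2 (0.99, 0.99 and 0.98; 0.146%).

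Among the members themselves, likeness differed with and without that array. Ltc4s and Ltb4r1 correlated at 0.93 over 7 arrays and at -0.75 without replicate 1, so their likeness rested on that array. Alox5ap and Ltb4r1 correlated at 0.99 and 0.84, and Alox5 and Alox5ap at 0.99 and 0.74.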

How the data were processed

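Total RNA of 7 mouse brain samples was amplified and labelled with Cy3 for Agilent arrays of 60-base probes, per the labels' protocols. The deposited scanner files hold spot intensity from Agilent Feature Extraction 11.5.1.1 (per the submitters' processing notes), background-subtracted and detrended within each array per the file headers. The deposited value table holds a linear ratio, found to equal each array's processed intensity over its 75th percentile within 0.0428%, and served as an alternative. Each array had 43020 spots other than controls, 72.5% to 79.1% of them well above background; none was saturated. Arrays count no molecules, so their number limits the precision.

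Processed intensity was taken to log2 and the array's 75th percentile subtracted; spots with an outlier flag (91 to 147 per array) were left out and spots of a probe averaged. Probes well above background on at least 3 arrays were kept, with the brightest per gene. Accessions of 28309 of 39401 probes matched RefSeq GRCm38.p6, and these probes took the RefSeq gene name. Probes of the members and probes without a match kept the name in the files. Groups followed the sample titles. The 3 groups were fitted together with limma 3.58.1 in R 4.3.3 (4 residual and 1.68 prior degrees of freedom; the sham array is assumed to vary like the others), two-sided, with Benjamini-Hochberg adjustment over 23311 features and a threshold of 0.05. An exact permutation test of 3 arrays against 3 cannot go below p = 0.1 and was not used. The fit was tested on simulated data. Figures used Python 3.11.15 and matplotlib 3.10.9.

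The members and gene lists were chosen with earlier results of these data known. Beyond the members and Pla2g2e, the text names up to 8 further pathway genes with the largest genotype difference, the most abundant markers of a list and the 3 features most like each member; others are named where a statement turns on them. Replicate numbers are shared between genotypes but were not used to pair the samples in the main fit. The deviations of same-numbered arrays from their group means correlated at -0.38, -0.56 and 0.35. These values cannot decide whether samples were paired, because wild type replicate 1 sets most of the deviations in its group. Slide was not fitted as a block because it coincides with genotype. Alternatives were normexp background correction, quantile normalization, the value table, no filter on dim probes, the mean of a gene's probes, only the day 3 arrays, a replicate block, array weights and leaving out each day 3 array.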

Additional observations from a re-analysis of the deposited data

How the results depend on the processing

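No member passed the threshold in any comparison under any of the 15 alternative settings (smallest adjusted p = 0.127). Of 351 recomputed member differences 330 kept their direction and 21 reversed, 10 of them with no array left out. Part of the 330 could not change. Knockout arrays do not enter wild type minus sham, nor wild type arrays knockout minus sham. Using only the day 3 arrays, or the replicate block, leaves knockout minus wild type as it was. The 330 is thus no measure of robustness. Knockout minus wild type turned to -0.30 for Ltb4r1 and -0.14 for Cysltr1 under array weights, which gave wild type day 3 replicate 1 a weight of 0.0513 and did not fully converge. In the day 3 arrays alone without it, the values were -0.28 for Ltb4r1, -0.079 for Cysltr1 and -0.020 for Alox12. The mean of both probes gave -0.17 for Alox12b. Wild type day 3 minus sham turned under array weights to 0.47 for Alox5, 0.54 for Alox5ap, 0.98 for Ltb4r1, 0.28 for Cysltr1 and -0.28 for Aloxe3, and under normexp to -0.010 for Aloxe3. Knockout minus sham of Ltc4s was -0.0057 after quantile normalization. The cause was not tested.

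Leaving out 1 day 3 array at a time, knockout minus wild type ranged from -0.28 to 2.23 for Ltb4r1, from -0.079 to 1.55 for Cysltr1 and from -0.020 to 0.62 for Alox12. Wild type day 3 minus sham ranged from -1.34 to 0.57 for Alox5, -1.72 to 0.47 for Alox5ap, -1.69 to 0.82 for Ltb4r1, -1.43 to 0.20 for Cysltr1 and -0.21 to 0.18 for Aloxe3.

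Over all features, 3 were called in the knockout against sham and 3 in wild type day 3 against sham. These counts were 95 and 147 under array weights, 1 and 1 after quantile normalization, 0 and 0 after normexp and 8 and 6 without wild type replicate 1. They were 0 and 0 on leaving out any other day 3 array. Knockout against wild type had 0 calls, except for 2 under array weights. Normexp moved the median knockout minus sham difference of all features to 0.11, against 0.00. With the replicate block, 0 members and 0 features were called between the genotypes (149 features at an unadjusted p under 0.05), and this block changed no call. Slide could not be fitted as a block because it coincides with genotype. Dim probes limit Alox15 and the upstream Alox12 probe, and 1 sham array limits every comparison with sham.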
